A study of Homo sapiens with 12 samples.

Results

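The DACH, EYA and SIX-family genes described here are 9 genes, DACH1, DACH2, EYA1, EYA2, EYA3, EYA4, SIX2, SIX4 and SIX5, among the 55765 gene symbols counted in 12 RNA-seq libraries. They were listed by name as members of 3 protein families, and the set was chosen by measured values too. These were the lower DACH1 counts after hydrogen peroxide (H2O2) in 2 experiments and the higher EYA4 counts in 1 of them, so these 3 changes are described with no test. The cells were SH-SY5Y, a human neuroblastoma line subcloned from the bone marrow-derived line SK-N-SH, so every library comes from 1 cloned tumour line. All cultures received all-trans retinoic acid (ATRA), which makes these cells stop dividing and extend neurites, for 7 days. In the co-treatment experiment, 3 treated cultures had H2O2 together with ATRA for the 7 days and 3 controls had ATRA alone. In the pre-treatment experiment, 3 treated cultures had H2O2 for 72 h before ATRA began and 3 controls had none. The H2O2 dose is 10 mM in the labels and 10 μM in the study's methods. Sequencing was of total RNA after ribosomal RNA had been removed, and each library holds between 27576276 and 98287391 reads on genes. The labels number the replicates but do not say how the cultures were separated, so p-values measure the spread between these libraries, which may be technical.

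The 3 families form a network known best from the developing eye, ear, kidney, muscle and cranial sensory organs, where it acts with PAX factors. SIX-family proteins bind DNA through a homeodomain, EYA proteins are phosphatases that join SIX-family proteins as coactivators, and DACH proteins are nuclear factors that recruit corepressors. In the nervous system, members of the network take part in the growth of progenitor cells and in sensory neuron development, and DACH1 marks cortical progenitors and some neurons.

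Control 3 of the pre-treatment experiment stood apart from controls 1 and 2. Its counts differed from theirs by chi-square values of 499 and 545 per degree of freedom, against 24.8 to 147 for every other pair of replicates within a group. Reads outside annotated genes, per read on a gene, came to 0.80 and 0.83 in controls 1 and 2, to 0.20 in control 3 and to between 0.26 and 0.46 in the other 9 libraries. Pre-treatment comparisons are therefore given over 5 libraries, without control 3, and, for genes that were tested there, over all 6. All 5 neuronal and all 8 noradrenergic neuroblastoma markers had reads in every library, although TH, the enzyme that starts catecholamine synthesis, stayed at or under 0.258 counts-per-million (CPM). The 4 skeletal muscle markers, a tissue rich in EYA and SIX-family proteins, summed to at most 0.386 CPM in any library.

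DACH1 lies on chromosome 13 at 72012098-72441342 of hg19, on the minus strand, and is a gene of 429.2 kb whose exons cover 5684 bases. EYA4 lies on chromosome 6 at 133561652-133853266, on the plus strand, with 14674 exonic bases, 90 of which it shares with the non-coding gene TARID on the other strand. The 250 bases before the start site of each are shown because the results turn on these 2 genes. They come from RefSeq promoters on GRCh38.p14, DACH1 at chr13:71867205-71867454 on the minus strand and EYA4 at chr6:133241107-133241356 on the plus strand. Capitals mark AGGTCA, the letters that retinoic acid receptors bind in pairs.
DACH1: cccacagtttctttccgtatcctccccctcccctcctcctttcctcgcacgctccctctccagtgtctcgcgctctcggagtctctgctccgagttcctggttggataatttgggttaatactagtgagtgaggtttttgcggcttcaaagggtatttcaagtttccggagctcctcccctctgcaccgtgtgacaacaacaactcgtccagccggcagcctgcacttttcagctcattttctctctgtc
EYA4: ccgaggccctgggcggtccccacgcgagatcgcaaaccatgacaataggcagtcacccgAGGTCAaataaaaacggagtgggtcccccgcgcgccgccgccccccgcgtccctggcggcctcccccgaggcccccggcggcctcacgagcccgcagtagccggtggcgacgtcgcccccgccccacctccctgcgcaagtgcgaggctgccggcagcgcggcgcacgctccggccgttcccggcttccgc
The EYA4 sequence is 75.2% G or C with 36 CpG dinucleotides, and the DACH1 sequence is 54% G or C with 12. AGGTCA, searched on both strands, occurs once in the EYA4 sequence, 191 bases before the start, and in 12.1% of 35116 RefSeq promoters of the same length. Promoter entries were searched for 6 of the 9 genes, DACH1, DACH2, EYA3, EYA4, SIX2 and SIX4, and of these only that of EYA4 holds AGGTCA. EYA1, EYA2 and SIX5 were not searched. None of the 6 holds TCAGGTT, a site bound by SIX-family proteins that occurs in 2.79% of promoters, or the TATA box TATAAA, which occurs in 10.7%.

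Per length of exon, EYA3 and DACH1 had the highest levels of the 9 genes and DACH2 the lowest. In the co-treatment controls, the level was 6.87 ± 0.59 CPM per kb for EYA3 (SD, n = 3), and DACH1, at 5.72 ± 1.21 CPM per kb, overlapped it. EYA1 followed at 1.67 ± 0.30, SIX5 at 0.868 ± 0.309 and EYA4 at 0.235 ± 0.061 CPM per kb, each without overlap with its neighbours in this order. EYA2, SIX2 and SIX4 lay between 0.0194 and 0.0659 CPM per kb on average, with EYA2 overlapping SIX2 and SIX2 overlapping SIX4. In co-treated libraries DACH1, at 2.83 ± 0.22 CPM per kb, no longer overlapped EYA3 at 7.03 ± 0.23. In pre-treatment controls it averaged 13.8 ± 8.6 CPM per kb and overlapped EYA3 at 7.96 ± 1.57. After pre-treatment EYA4 reached 0.675 ± 0.073 CPM per kb and overlapped SIX5 at 0.589 ± 0.199. DACH2 had 3 reads in all 12 libraries together, 1 in co-treatment treated 1 and 2 in pre-treatment treated 2. By this level over the 12 libraries, EYA3 exceeded 63.3% of the 15587 genes that were tested in co-treatment and matched the annotation, DACH1 62.0%, EYA1 32.2%, SIX5 22.4% and EYA4 13.2%.

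**Figure D1:**
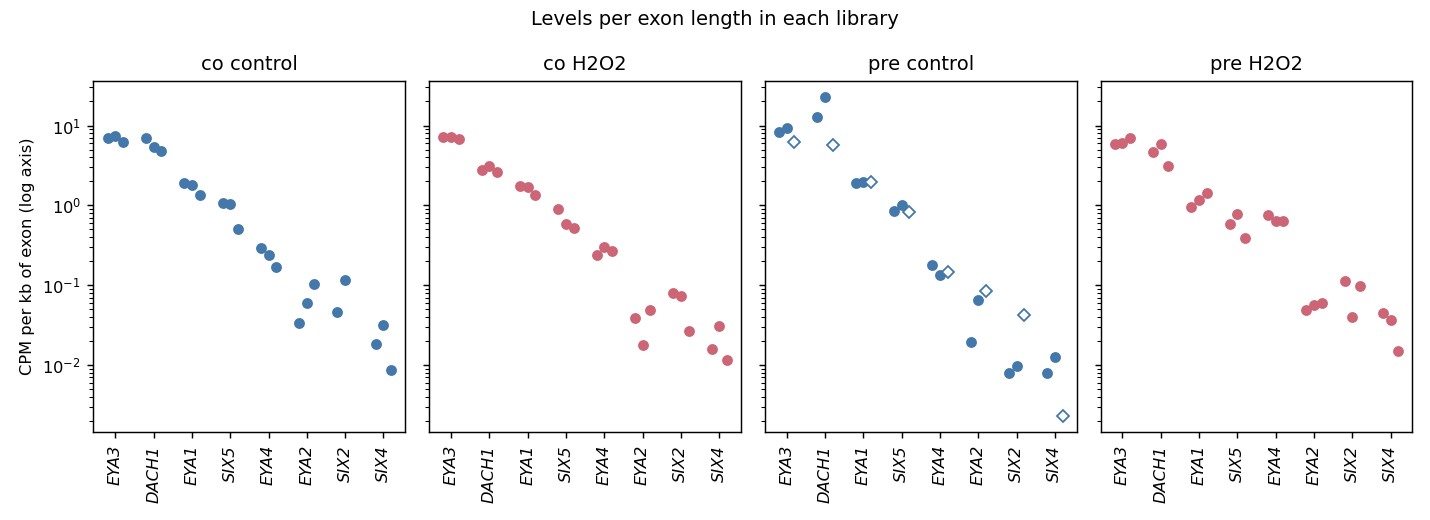
Level of 8 of the genes in each library, as CPM per kb of exon on a log axis, in the 4 groups. Points are libraries, open diamonds are pre-treatment control 3, and DACH2 and 1 SIX2 value at 0 are not drawn. EYA4 stands below SIX5 in 3 groups and overlaps it after pre-treatment, and DACH1 stands above EYA3 in pre-treatment controls 1 and 2.

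DACH1 was lower in treated than in control libraries of the co-treatment experiment, and the groups did not overlap. Its level, scaled by TMM factors over the 12 libraries, was 40.2, 30.4 and 27.0 CPM in controls 1 to 3 and 15.7, 17.5 and 15.1 CPM in treated 1 to 3. The treated libraries were close to each other and all below the lowest control. The fitted log2 fold change (log2FC) was -1.02 (SE 0.16), a 2.02-fold lower level. DACH1 was the only 1 of the 5 members tested in this comparison past the study's thresholds of a false discovery rate (FDR) under 0.05 and an absolute log2FC over 0.6, which 0.598% of the 22089 genes passed. It was also the only tested member whose groups did not overlap, as was the case for 14.0% of all genes. Both counts follow from how the list was drawn up.

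The size of the DACH1 difference in the pre-treatment experiment depended on which controls were used. DACH1 was at 73.6 and 129.4 CPM in controls 1 and 2, at 31.9 CPM in control 3 and at 26.4, 33.4 and 17.7 CPM in treated 1 to 3. Controls 1 and 2 were above every other library of the series, while control 3 lay between treated 1 and treated 2. Over 5 libraries the log2FC was -1.95 (SE 0.29), a 3.86-fold lower level. Over all 6 it was -1.60 (SE 0.46) with overlapping groups, and against control 3 alone it was -0.31. In the control libraries of the co-treatment experiment, which had no H2O2 either, DACH1 ranged from 27.0 to 40.2 CPM, a range that holds control 3 but neither control 1 nor control 2. Pre-treatment controls 1 and 2 exceeded the co-treatment controls by a log2 difference of 1.65 (SE 0.24), and all 3 pre-treatment controls did so by 1.30 (SE 0.45). Experiment, culture time and library preparation cannot be told apart in that difference. DACH1 was thus highest in the 2 libraries with the largest ratio of reads outside genes, 0.80 and 0.83, and the part of this property in the DACH1 difference was not tested. Fewer cells with DACH1 RNA and less DACH1 RNA per cell cannot be told apart in bulk libraries.

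**Figure D2:**
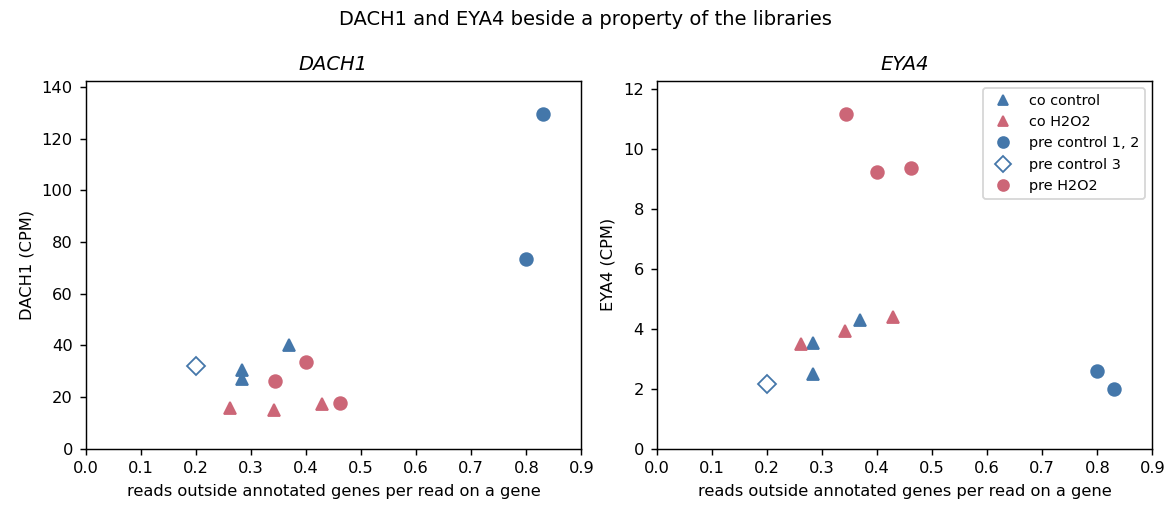
DACH1 (left) and EYA4 (right) in CPM against the number of reads outside annotated genes per read on a gene; each point is 1 of 12 libraries, triangles for co-treatment, circles for pre-treatment and an open diamond for pre-treatment control 3. The 2 libraries at 0.80 and 0.83 have the highest DACH1, 73.6 and 129.4 CPM, while EYA4 in the 3 pre-treated libraries, 9.22 to 11.1 CPM, is above all others at ratios from 0.34 to 0.46.

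EYA4 was higher in the pre-treated libraries against controls 1 and 2, all 3 controls and control 3 alone. Its level was 2.59, 1.99 and 2.16 CPM in controls 1 to 3 and 11.1, 9.22 and 9.37 CPM in treated 1 to 3. All 3 controls were close to each other, control 3 lay between the other two, and every treated library was far above them. The log2FC was 2.14 (SE 0.22) over 5 libraries, a 4.40-fold higher level, and 2.14 (SE 0.23) over all 6, and it was 2.20 against control 3 alone. In the co-treatment experiment EYA4 was at 4.30, 3.53 and 2.51 CPM in controls and 3.48, 4.41 and 3.93 CPM in treated libraries. Those groups overlapped, and the log2FC of 0.19 (SE 0.24) did not pass edgeR's quasi-likelihood test with Benjamini-Hochberg adjustment over all genes (adjusted p = 0.912). EYA4 was 1 of 6 genes past the thresholds (FDR under 0.05, absolute log2FC over 1) over all 6 pre-treatment libraries, 0.0242% of 24743 genes, and nothing is read from this because the comparison chose it. The other 5 were COL3A1 and VIM, which encode a collagen chain and vimentin, the integrin ITGA4, the semaphorin receptor NRP1, and C8orf4. VIM belongs to a list of 7 mesenchymal neuroblastoma markers and was at 3.00 to 5.06 CPM in pre-treatment controls and 19.6 to 23.0 CPM in treated libraries. VIM, CD44, YAP1 and PRRX1, 4 of the 7, were higher in every treated library than in all 3 controls. Groups over these 6 libraries did not overlap, in either direction, for 16.4% of 24743 genes. CD44 was at 0.817 to 1.40 CPM in controls against 1.92 to 3.00 CPM in treated libraries. YAP1 was at 0.053 to 0.086 CPM against 0.207 to 0.972 CPM, and PRRX1 at 0 against at most 0.076 CPM. COL1A1 was lower without overlap against controls 1 and 2, but not against all 3. The whole list, most of which is FN1, summed to 135 to 259 CPM in these controls and 134 to 192 CPM in treated libraries. In co-treatment VIM alone of the 7 was higher without overlap, at 5.78 to 9.85 CPM in controls and 15.3 to 17.8 CPM in treated libraries. The 8 noradrenergic markers summed to 2135 to 3179 CPM in the 3 pre-treatment controls and 1404 to 1821 CPM in treated libraries, without overlap, and PHOX2A, GATA2 and DBH were each lower without overlap. In co-treatment that sum was 2152 to 3088 CPM in controls and 1641 to 2246 CPM in treated libraries. The part of these marker shifts in the EYA4, DACH1 and EYA1 differences was not tested.

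The DACH1 to EYA4 ratio within a library depends on no scaling between libraries. In co-treatment, there were 9.35, 8.61 and 10.8 DACH1 reads for each EYA4 read in controls and 4.50, 3.97 and 3.84 in treated libraries. In pre-treatment, there were 28.4, 64.9 and 14.8 in controls 1 to 3 and 2.37, 3.62 and 1.89 in treated libraries. The groups did not overlap in either experiment, control 3 included, and since the ratio joins the genes that were chosen for their change, it has no test. Among the 4 EYA genes, EYA4 made up 1.18 to 1.74% of reads per exon length in pre-treatment controls and 6.96 to 10.0% in treated libraries, against 2.17 to 3.29% in the 6 co-treatment libraries. EYA3 supplied 74.0 to 81.3% in every library.

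**Figure D3:**
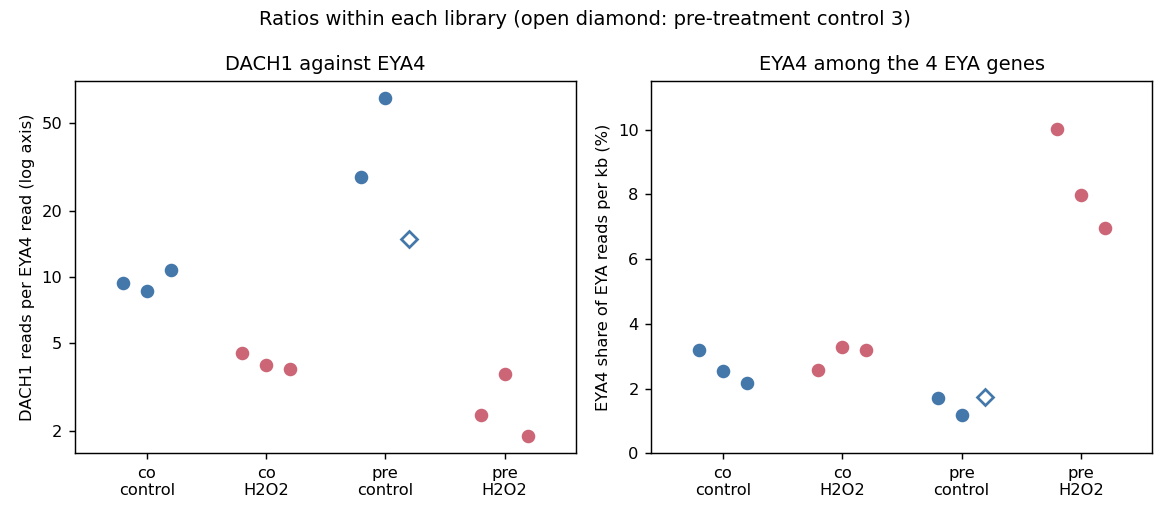
Left, DACH1 reads per EYA4 read on a log axis; right, EYA4 as a percentage of reads per kb of exon summed over the 4 EYA genes. Each point is a library, with control 3 of pre-treatment as an open diamond. The ratio is lower in every treated library than in each control of its experiment, and the EYA4 share reaches 6.96 to 10.0% only after pre-treatment.

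EYA1, a coactivator needed for ear and kidney development, was lower after pre-treatment, though less than the fold threshold. It was at 18.0, 18.3 and 18.3 CPM in controls 1 to 3 and 8.97, 10.8 and 13.3 CPM in treated 1 to 3. The controls were nearly equal, control 3 included, and every treated library was below them. The log2FC was -0.69 (SE 0.19, adjusted p = 0.0292) over 5 libraries, a 1.61-fold lower level. Without control 1, control 2, treated 1 or treated 2 the adjusted p lay between 0.0891 and 0.140, with a log2FC from -0.68 to -0.57. With control 3 it was -0.72 (SE 0.20), as large, but the adjusted p was 0.320 in a comparison where 11.2% of genes had an unadjusted p under 0.05. Over the same 6 libraries the adjusted p was 0.129 by the exact test and 0.0362 by DESeq2. The DESeq2 log2FC of -0.75 was still under the fold threshold. In co-treatment, EYA1 was at 17.8, 16.6 and 12.4 CPM in controls and 16.4, 15.9 and 12.4 CPM in treated libraries, with a log2FC of -0.07 (SE 0.17, adjusted p = 0.969). The difference between the 2 responses, tested as an interaction over 11 libraries, was -0.68 (SE 0.27, adjusted p = 0.122).

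EYA3, the EYA gene with the highest level and a phosphatase linked to the DNA damage response, was at 52.9, 60.2 and 40.3 CPM in pre-treatment controls 1 to 3. The treated libraries were at 37.3, 38.8 and 45.3 CPM, below controls 1 and 2 but on both sides of control 3. The log2FC of -0.46 (SE 0.13, adjusted p = 0.0360) over 5 libraries was under the fold threshold, over all 6 it was -0.34 (SE 0.19, adjusted p = 0.546), and against control 3 alone it was 0.00. Without control 1, control 2, treated 1 or treated 2 the adjusted p over the remaining 4 libraries lay between 0.0672 and 0.219. In co-treatment, EYA3 stayed between 40.2 and 47.7 CPM in all 6 libraries, with a log2FC of 0.03 (SE 0.12, adjusted p = 0.979). The interaction was -0.54 (SE 0.17, adjusted p = 0.0634). Of the 6 tested members other than DACH1 and EYA4, 2 (EYA1 and EYA3) had an unadjusted p under 0.05 in this interaction, as did 28.1% of 25668 genes. Of these 6 members 0 passed edgeR's quasi-likelihood test at an FDR under 0.05, which 8.02% of all genes passed, and no other tool was run on it.

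SIX5, a homeodomain factor next to the myotonic dystrophy gene DMPK, lies on chromosome 19 at 46268043-46272510. Its counts need care, because 2046 of its exonic bases are shared with a non-coding gene on the other strand and the strand setting of the counting is not given in the sources used here. SIX5 was at 3.81, 3.68 and 1.84 CPM in co-treatment controls and 3.27, 2.07 and 1.89 CPM in treated libraries, with overlapping groups and a log2FC of -0.39 (SE 0.32, adjusted p = 0.843). After pre-treatment it was at 3.03, 3.58 and 2.93 CPM in controls and 2.1, 2.83 and 1.4 CPM in treated libraries. The groups did not overlap, although treated 2 was just below control 3, and the log2FC was -0.62 (SE 0.31, adjusted p = 0.167) over 5 libraries and -0.59 (SE 0.32, adjusted p = 0.524) over all 6.

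SIX2, which keeps kidney progenitors undifferentiated, SIX4 and EYA2 had at most 29 reads in any library. SIX2 had 1, 1 and 6 reads in pre-treatment controls and 24, 6 and 17 in treated libraries. SIX4 had 3, 4 and 1 reads in these controls and 29, 17 and 8 in treated libraries, without overlap in CPM. EYA2 had 4, 11 and 20 reads in controls and 17, 14 and 17 in treated libraries. SIX2 and SIX4 entered the 5-library comparison only through treated libraries, so they had to differ to be tested at all. SIX2 passed the thresholds there (log2FC 3.18, SE 0.97, adjusted p = 0.0433) on 2 control reads, and did not without control 1 (adjusted p = 0.172) or control 2 (adjusted p = 0.182). As a ratio of depth-scaled counts, SIX2 was 9.99 times higher in treated libraries against controls 1 and 2, with an exact 95% interval of 2.61 to 84.9, and 4.07 times higher (1.90 to 9.97) with control 3. The SIX4 ratio was 3.28 (1.49 to 8.54) against controls 1 and 2 and 4.67 (2.21 to 11.4) with control 3. These intervals cover counting error only and pool the libraries of each group, so no rise is read from them. Over 5 libraries the SIX4 log2FC was 1.68 (SE 0.79, adjusted p = 0.147) and that of EYA2 was 0.43 (SE 0.68, adjusted p = 0.673). Over all 6 EYA2 came to -0.04 (SE 0.64, adjusted p = 0.985), and SIX2 and SIX4 did not pass the filter. In co-treatment, SIX2 had 0 to 12 reads in a library, SIX4 had 2 to 13 and EYA2 had 4 to 13, and none of the 3 passed the filter.

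**Figure D4:**
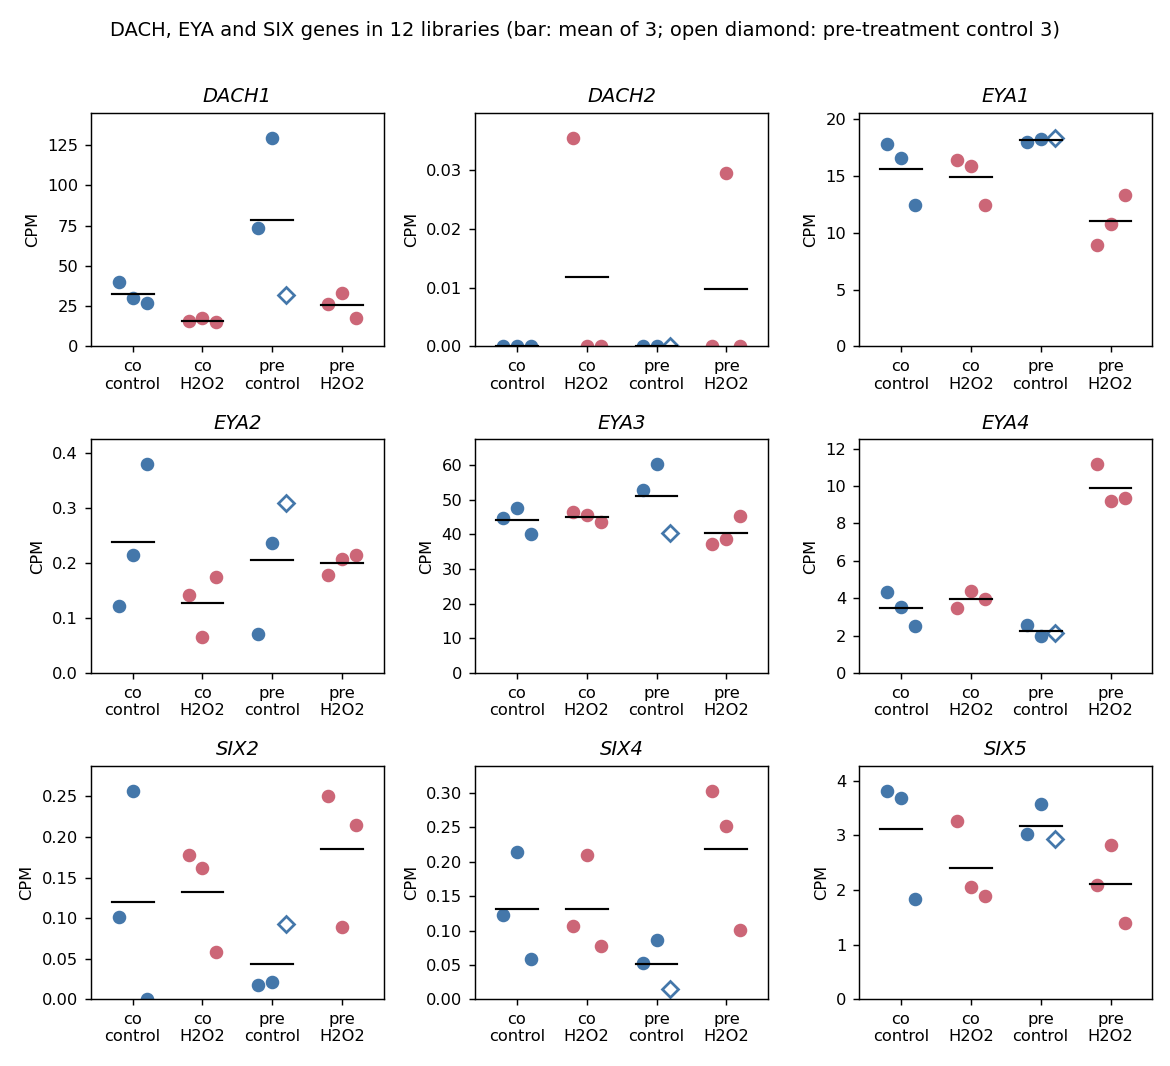
CPM of each of the 9 genes in the 12 libraries, 1 panel per gene with its own linear axis from 0; points are libraries, bars the mean of 3, and open diamonds pre-treatment control 3. Every treated DACH1 value in co-treatment is below its controls, EYA4 is at 9.22 to 11.1 CPM only after pre-treatment, and the 3 EYA1 values of pre-treatment controls are nearly equal.

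Counted together, 5 of the 9 members entered the co-treatment comparison, 8 the pre-treatment comparison over 5 libraries and 6 that over all 6. In the 5-library comparison EYA4, SIX2 and DACH1 passed the thresholds, but DACH1 and EYA4 were chosen by these changes and SIX2 was tested only because its treated libraries were high, so nothing is read from this count. Of the 4 tested members left when SIX4 is set aside too (EYA1, EYA2, EYA3 and SIX5), 0 passed the thresholds by edgeR's quasi-likelihood test, the exact test or DESeq2, while 11.2% of 26350 genes passed the quasi-likelihood test. EYA1 and EYA3 had an unadjusted p under 0.05, as 10671 of the 26350 genes did, and an FDR under 0.05 alone, as 26.1% did. The groups did not overlap for 3 of these 4 members (EYA1, EYA3 and SIX5) and for 57.7% of all genes, and over all 6 libraries they did not overlap for 2 (EYA1 and SIX5), against 16.4% of genes. Between co-treatment controls and pre-treatment controls 1 and 2, 0 of the same 4 members passed by edgeR's quasi-likelihood test, the exact test or DESeq2. The thresholds were an FDR of 0.05 and an absolute log2FC of 1, and 10.2% of 25545 genes passed the quasi-likelihood test. Of the 4 members 1 had an unadjusted p under 0.05, as did 9736 of all 25545 genes. In that comparison EYA1 differed by 0.23 (SE 0.18, adjusted p = 0.387), EYA3 by 0.37 (SE 0.14, adjusted p = 0.0882) and SIX5 by 0.09 (SE 0.32, adjusted p = 0.856). The experiments' own comparisons share these controls.

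**Figure D5:**
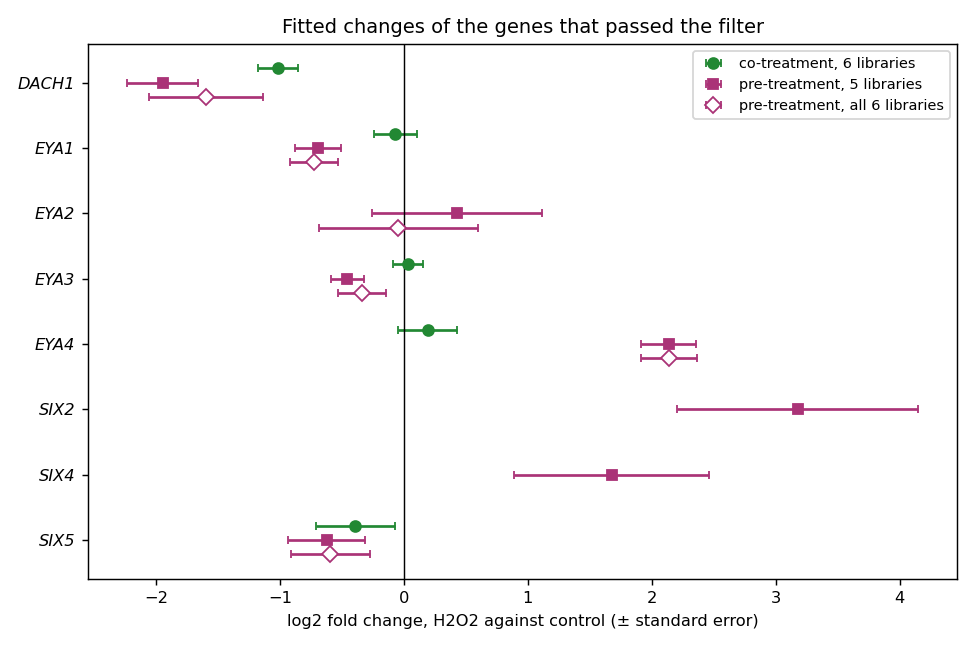
Fitted log2 fold changes of treated against control libraries, with standard errors as bars, for the 8 members that entered at least 1 comparison. DACH1 is below 0 and EYA4 above 0 in both pre-treatment fits, and EYA1 is at -0.69 and -0.72 after pre-treatment but at -0.07 in co-treatment.

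SIX3 and SIX6, which are not among the 9 members, differed widely in level. SIX6 had 188 reads in all libraries. SIX3, a forebrain and eye regulator that neighbours SIX2 on chromosome 2, exceeded 67.9% of the same 15587 genes in level per length. It was at 28.9, 20.1 and 19.0 CPM in co-treatment controls and 18.6, 14.8 and 17.7 CPM in treated libraries (log2FC -0.42, SE 0.18, adjusted p = 0.557). In pre-treatment it was at 37.4 and 46.6 CPM in controls 1 and 2, 13.7 CPM in control 3 and 13.5, 16.2 and 28.4 CPM in treated libraries. Like DACH1, SIX3 was highest in controls 1 and 2. It fell over 5 libraries (log2FC -1.09, SE 0.28, adjusted p = 0.0249), a call that ended over all 6 (log2FC -0.75, SE 0.44, adjusted p = 0.561) and turned to 0.49 against control 3 alone. Over the 5 libraries the call also ended without control 1, control 2, treated 1 or treated 2 (adjusted p from 0.0571 to 0.158). SIX3 and its antisense gene SIX3-AS1 share 207 exonic bases.

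Among 23 PAX, MEIS, TSHZ and similar factors that act before or beside the network, 12 were tested in co-treatment and 1 fell, where 0.598% of all genes were called. This was MEIS1, a homeodomain partner factor, with a log2FC of -0.67 (SE 0.12, adjusted p = 0.0307). Over 5 pre-treatment libraries, 14 were tested and 2 fell, the zinc finger factors SALL2 (log2FC -1.18, SE 0.17) and TSHZ3 (-1.29, SE 0.14), with adjusted p of 0.0031 and 0.0011, where 11.2% of all genes were called in either direction. Both calls ended with control 3 (adjusted p = 0.320). MEIS2, the highest of the list, was at 307 ± 37 CPM in co-treatment controls (SD, n = 3). Its log2FC was 0.09 in co-treatment, 0.03 over 5 pre-treatment libraries and 0.05 over all 6.

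Of 19 cofactors of DACH, EYA and SIX-family proteins, all were tested. In co-treatment, where 0.598% of all genes were called, 1 fell, the corepressor TLE1 (log2FC -0.84, SE 0.13, adjusted p = 0.0145). Over 5 pre-treatment libraries 5 fell, against 11.2% of all genes called in either direction, and with control 3 all 5 calls ended (adjusted p from 0.320 to 0.326). They were the acetyltransferases CREBBP (log2FC -2.15, SE 0.20) and EP300 (-2.12, SE 0.17), the corepressors SKI (-2.13, SE 0.22) and TLE3 (-1.40, SE 0.15), and SOBP (-1.77, SE 0.27). EP300 was at 123 ± 17 CPM in controls 1 and 2 (n = 2), 23.0 CPM in control 3 and 27.9 ± 5.2 CPM in treated libraries (n = 3). MCRS1, the cofactor with the highest level, had a log2FC of 0.21 in co-treatment (adjusted p = 0.791 by edgeR's quasi-likelihood test). Over 5 pre-treatment libraries it was 0.42 (adjusted p = 0.0223), past the FDR threshold but under the fold threshold. Over all 6 it was 0.06 (adjusted p = 0.935), with control 3 at 96.5 CPM and treated libraries at 71.3 ± 1.4 CPM (n = 3).

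Of 19 targets and substrates, 14 were tested. In co-treatment 0 passed edgeR's quasi-likelihood test, the exact test or DESeq2. There, 2 had an unadjusted p under 0.05, as did 1801 of all 22089 genes. Over 5 pre-treatment libraries 1 of the 14 fell, a smaller share than the 11.2% of all genes called in either direction. This was the neurotrophic factor receptor RET, at 4158 ± 211 CPM in controls 1 and 2, 2911 CPM in control 3 and 1815 ± 720 CPM in treated libraries (log2FC -1.17, SE 0.31, adjusted p = 0.0254). For the 8 genes of these 3 lists that fell over 5 libraries, the log2FC with control 3 lay between -1.75 and -0.99, against -2.15 to -1.17 without it. The SE was 0.24 to 0.54 with it and 0.14 to 0.31 without, and none of the 8 passed the quasi-likelihood test over all 6 (adjusted p from 0.320 to 0.336). There, 3 of 14 partner factors, 6 of 19 cofactors and 3 of 14 targets had an unadjusted p under 0.05, as did 11.2% of 24743 genes. The exact test called 1 partner factor and 2 cofactors, among 231 genes in all. DESeq2 called 2 and 5, among 501 genes in all.

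Likeness of level was described by Pearson's r of log2 CPM over the 12 libraries among 18033 genes, which share library, depth and scaling. The closest to DACH1 were TNR (r = 0.958), HIVEP2 (0.955), MPPED2 (0.951), FOXO3 (0.949) and TIAM2 (0.948). TNR, which encodes the neural matrix protein tenascin-R, was at 710 CPM on average in pre-treatment controls 1 and 2, 240 CPM in control 3 and 236 CPM after pre-treatment. EYA4 was most like COL3A1 (r = 0.986), CERKL (0.970), ITGA4 (0.967), PKP2 (0.966) and NSUN5P1 (0.960). COL3A1 was at 17.3 CPM on average in controls 1 and 2, 17.9 CPM in control 3 and 95.0 CPM after pre-treatment, against 27.5 and 28.5 CPM in co-treatment controls and treated libraries. The genes closest to DACH1 were highest in controls 1 and 2, and those closest to EYA4 were highest after pre-treatment. This follows from how they were picked, so nothing is read from it.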

How the data were processed

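RNA from 12 SH-SY5Y cultures in 4 groups of 3 was analysed. The authors trimmed reads with cutadapt 2.10, checked them with FastQC 0.11.8, mapped them to hg19 with HISAT2 2.1.0 and counted them per gene symbol with HTSeq 0.7.2, and deposited unnormalized read counts for each library. The annotation version and strand setting are not given in the sources used here. The 5 closing entries for uncounted reads, 40.0 to 59.9% of all entries, stayed out of library sizes. Deposited tables of the authors' own fold changes and p-values for each experiment were not used.

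A gene was tested if its CPM equalled or passed 5 counts in the shallowest library (0.181 CPM in co-treatment, 0.120 CPM in pre-treatment) in a number of libraries no lower than the size of the smaller group. Counts were scaled with TMM factors and compared with edgeR 4.0.16 (quasi-likelihood test, Benjamini-Hochberg adjustment) in R 4.3.3, at an FDR under 0.05 and the study's log2FC thresholds of 0.6 (co-treatment) and 1 (pre-treatment). The interaction was 1 model over 11 libraries, called at an FDR under 0.05. The members, lists, tests and alternatives were chosen with earlier results of these data known. Named are the 9 members, SIX3 and SIX6, the list genes that passed a treatment comparison or have the highest level of their list, and the 5 genes most like DACH1 and EYA4. DACH1 and EYA4 changes have no test. Some genes of the lists are not reported here.

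Positions and exon lengths are from Gencode v44 lifted to hg19, matched by symbol (33177 of 55765 symbols, 59.5%, and 9 of 9 members). Levels between genes were compared per kb of merged exon. Promoters are from RefSeq on GRCh38.p14. The steps were tested on simulated data. Alternatives were edgeR's exact test, DESeq2 1.42.0, RLE factors, library size, no filter, a block for the replicate number and leaving out each library. Control 3 as the only control was added after seeing the data. Same-numbered libraries deviated together by r between -0.279 and 0.0726, so the numbers were not taken as pairs.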

Additional observations from a re-analysis of the deposited data

Results flagged for a closer look

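The difference between the responses to H2O2 in the pre-treatment and co-treatment experiments was tested with edgeR's quasi-likelihood interaction over the 11 libraries without pre-treatment control 3. At an FDR under 0.05, which 8.02% of 25668 genes passed, it called 2 of 14 partner factors (1 higher, 1 lower), 7 of 19 cofactors (1 higher, 6 lower) and 1 of 14 targets (lower). Of these, 6 are among the genes named in the report. The log2 difference was negative, so the pre-treatment change was the lower, for EP300 (-2.18, adjusted p = 0.00743), CREBBP (-2.05, adjusted p = 0.0121), SKI (-1.99, adjusted p = 0.0111), TLE3 (-1.86, adjusted p = 0.0123) and SALL2 (-1.03, adjusted p = 0.0481). It was positive for MEIS1 (0.76, adjusted p = 0.0386), which fell in co-treatment and was at 154 ± 30 CPM in pre-treatment controls 1 and 2 (SD, n = 2) and 167 ± 23 CPM in treated libraries (n = 3). With control 3 added, 0 of the 6 passed edgeR's quasi-likelihood test (adjusted p from 0.398 to 0.553). The differences, in which controls 1 and 2 still enter, kept their direction. They were -1.74 for EP300, -1.62 for CREBBP, -1.59 for SKI and TLE3, -0.81 for SALL2 and 0.79 for MEIS1. The SE were larger (0.35 to 0.67 for EP300). Control 3 itself was at 23.0 CPM for EP300 and 41.8 CPM for CREBBP, below the pre-treated averages of 27.9 and 45.5 CPM. For SKI, TLE3 and SALL2 control 3 was above those averages, at 20.6, 80.8 and 31.7 CPM against 17.9, 60.9 and 23.6 CPM. MEIS1 was at 143 CPM in control 3. EP300 averaged 123 CPM in pre-treatment controls 1 and 2 and 33.1 CPM in co-treatment controls. Its treated libraries averaged 27.9 CPM in pre-treatment and 33.4 CPM in co-treatment. CREBBP averaged 205 and 59.5 CPM in those controls, and 45.5 and 53.7 CPM in treated libraries. Between these H2O2-free controls, 3 of 19 cofactors were called higher in pre-treatment, and 10.2% of all genes were called. The part of this in the interaction was not tested.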

How the results depend on the processing

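For SIX3 and the members other than DACH1 and EYA4, 309 of 342 values over all comparisons and alternatives kept their direction and side of the thresholds, 15 changed direction, 10 gained a call and 8 lost one. For DACH1 and EYA4, whose changes chose the set, 96 of 96 values kept their direction and 4 moved by more than the replicate spread. Of these values 14 were no longer past the thresholds and 3 newly past them. DACH1 passed them in co-treatment under 8 of 12 alternatives, and EYA4 over 6 libraries under 4 of 13 (the exact test, DESeq2, no filter and without control 3). Counts of members below include both. Nothing is read from any call of DACH1 or EYA4, here or below, because their changes chose the set. Where values changed, the cause was not tested. In co-treatment 132 genes were called, 307 by the exact test, 308 by DESeq2, 443 with no filter, 80 with library size and 18 to 218 without 1 library. The member count of 1 became 0 with library size and ranged from 0 to 1 without 1 library, with 0 when any treated library was left out. Over 5 pre-treatment libraries, 2952 genes were called, and 1064 to 3540 without 1 library, fewest without control 2. Over 6 libraries, 6 genes were called, 231 by the exact test, 501 by DESeq2, 300 with no filter, 1 with library size and 0 to 2952 without 1 library, the most without control 3. Members there numbered 1, but 2 by DESeq2 and with no filter, 0 with RLE factors, library size or control 3 as the only control, and 0 to 3 without 1 library. Between control groups, 2612 genes and 1 member were called, 0 and 0 with control 3 (1551 genes at an unadjusted p under 0.05), and 609 to 3944 genes without 1 library. The interaction called 2058 genes, 7 with control 3 and 321 to 4499 without 1 library, and 1 member (EYA4), but 2 with library size, 0 with control 3 and 1 to 3 without 1 library. Library size moved the median log2FC of all genes to -0.21 over 5 pre-treatment libraries, 0.23 between controls and -0.23 in the interaction.

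Same-numbered libraries share only a number. The replicate block gave 180 genes in co-treatment, 3768 over 5 pre-treatment libraries, 0 genes and 0 members over 6, 1786 between controls, and 2684 genes and 4 members (DACH1, EYA1, EYA3 and EYA4) in the interaction. SIX2 lost its call with the block (adjusted p = 0.066) and with library size (adjusted p = 0.0582), and DESeq2 gave it no adjusted p. Direction turned with the block for EYA2 over 6 libraries (0.139) and for SIX5 between controls (-0.169). With control 3 as the only control, EYA3 came to 0.00156 and SIX3 to 0.491. Leaving out 1 library also turned some small values, whose log2FC then ranged in co-treatment from -0.208 to 0.0471 (EYA1) and from -0.0301 to 0.0829 (EYA3), for EYA2 from -0.194 to 1.5 over 5 libraries, from -0.451 to 0.43 over 6 and from -1.68 to 0.0159 between controls, and for SIX5 from -0.155 to 0.265 between controls and from -0.55 to 0.0581 in the interaction. At 90 to 129 reads over 12 libraries, EYA2, SIX2 and SIX4 are limited by depth.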
